A study of Mus musculus with 16 samples.

Results

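The genes described here are FoxO transcription factors and genes grouped with them as gluconeogenic or insulin-repressed in the liver. Whether insulin lowers each of these genes through FoxO factors was not tested. The genes were chosen by gene name on the array, and 10 of the 30214 gene names were taken: Foxo1, Foxo3, Foxo4, G6pc, G6pc3, Pck1, Pck2, Fbp1, Igfbp1 and Zbtb16. All 10 had a probe. In 7 of them at least 1 probe passed the detection filter (well above background on 2 or more arrays of 1 group), whereas Pck1, Fbp1 and Igfbp1 did not pass and have no fitted value.

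FoxO proteins are forkhead transcription factors that bind DNA when insulin is low and raise the transcription of genes for glucose production. When insulin activates AKT, AKT phosphorylates FoxO proteins, which then bind 14-3-3 proteins and leave the nucleus. In the liver this is a route by which insulin lowers G6pc, the catalytic subunit of glucose-6-phosphatase, Pck1, the cytosolic phosphoenolpyruvate carboxykinase, and Igfbp1, a secreted binding protein of insulin-like growth factors.

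AML12 cells are a non-tumourigenic hepatocyte line from mouse liver. The cells carried an inducible lentiviral shRNA, scramble or directed at eIF6 (eukaryotic initiation factor 6), were selected with puromycin as infected populations and received doxycycline to switch the shRNA on. All 4 groups received insulin for 1 hour, so the effect of insulin itself was not measured. The sample description gives the insulin as 100 nM and the treatment protocol gives 100 mM. According to the growth protocol and the methods, the culture medium also held insulin with transferrin and selenium, and dexamethasone. RNA was taken from the subpolysomal or the polysomal part of a sucrose gradient, which gave 4 groups: scramble subpolysomal, scramble polysomal, eIF6 shRNA subpolysomal and eIF6 shRNA polysomal. Each group had 4 arrays, described in the methods as biological replicates, and the labels do not say which of the pair of eIF6 shRNA sequences given in the methods was used. Because RNA from many cells is hybridized, fewer cells with an mRNA and less of that mRNA per cell cannot be told apart.

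The arrays were one-colour Agilent arrays with 44397 spots and 39429 probes outside the controls. Between 20177 and 24953 probes per array were well above background, and the 16 arrays were spread over 4 slides so that no slide lacked a group. Eif6, the targeted gene, had polysomal log2 signals of 12.96, 12.94, 12.96 and 12.94 in scramble cells and of 11.92, 12.00, 11.85 and 11.81 in eIF6 shRNA cells. The polysomal Eif6 signal fell by 1.05 (SE 0.08, limma adjusted p = 1.45e-07), and its 3 probes gave polysomal changes from -1.38 to -0.52. Subpolysomal Eif6 was 11.53, 11.55, 11.65 and 11.66 in scramble cells and 11.73, 11.49, 11.74 and 11.50 in eIF6 shRNA cells, a change of 0.02 (SE 0.08, adjusted p = 0.916). The knock-down was thus seen in the polysomal arrays and not in the subpolysomal ones. Of 15 hepatocyte markers, 10 were well above background on all 16 arrays, among them Krt18, Krt8, Hnf4a, Trf and Apob. Alb (albumin) was on 7 of 16, Asgr1 on 5, Fga on 3, Apoa1 on 2 and Fgb on 0. Of 5 cholangiocyte markers, 4 were also well above background on all 16 arrays. Among 7 mesenchymal or stellate markers, 6 fell on polysomes and 5 in the subpolysomal fraction (median changes -2.96 and -1.22). The part of this difference in the results below was not tested.

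Strings that FoxO factors recognize were looked up first near the start of the members. A match does not show a working site, and sites further upstream or with other letters were not searched. The sequences are from RefSeq (GRCm38.p6), and 8 of the 10 members had a promoter window there. In the 250 bases before the start, the forkhead motif TGTTTAC and the insulin-response core TGTTTTG were searched on both strands. Of 32851 windows of that length, 3.17% held the first, 5.56% the second and 8.51% either. G6pc, Pck2 and Igfbp1 each held 1 match, in every case TGTTTTG, and the windows of Foxo1, Foxo3, G6pc3, Pck1 and Fbp1 held neither string. Stretches of 29 bases are shown in the direction of the gene, with the match in capitals. The match starts 174 bases before the start in G6pc, 159 in Pck2 and 108 in Igfbp1, where it lies on the opposite strand and therefore reads in reverse complement.
G6pc (chr11:101367531-101367559, plus strand): ttttgtgtgccTGTTTTGctattttacgt
Pck2 (chr14:55540096-55540124, plus strand): cactcttaactTGTTTTGcattcgacatc
Igfbp1 (chr11:7197668-7197696, plus strand): gagctcacaagCAAAACAaacttattttg

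Igfbp1 and Fbp1 were below the detection limit of the array, and so was Pck1 on all arrays but 1. G6pc, which insulin also lowers in the liver, was dim but well above background on 11 of 16 arrays. Igfbp1 (probe A_51_P447545, chromosome 11, positions 7102442 to 7102501 of mm9) had scanner intensities from 1.71 to 2.43 on scramble subpolysomal arrays and from 2.34 to 2.91 on scramble polysomal arrays. In eIF6 shRNA cells its intensities were 1.92 to 2.38 and 2.01 to 2.57, and it was well above background on none of the 16 arrays. Fbp1, fructose-1,6-bisphosphatase, had intensities of 1.54 to 5.19 and was also well above background on 0 arrays. For comparison, the lowest intensity of a probe well above background was between 6.65 and 12.0, depending on the array.

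Pck1 was above this limit on a single array. Its probe (A_66_P121110, chromosome 2, positions 172984307 to 172984366) had an intensity of 13.8 on eIF6 shRNA subpolysomal array 2 and of 2.50, 2.90 and 1.94 on the other arrays of that group. Its intensities were 3.48 to 4.80 on scramble subpolysomal, 2.52 to 6.45 on scramble polysomal and 1.99 to 3.66 on eIF6 shRNA polysomal arrays. That single array also had the most probes well above background of all 16, 24953. No change can therefore be stated for Pck1, Fbp1 or Igfbp1 in either direction.

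**Figure D1:**
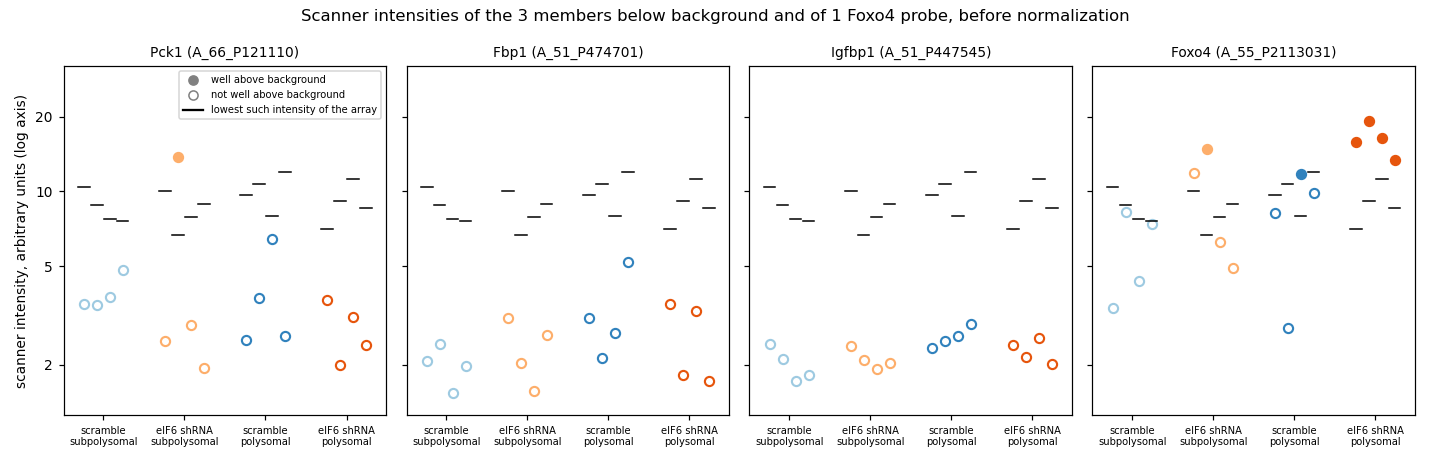
Scanner intensity in arbitrary units (log axis, before normalization) of Pck1, Fbp1, Igfbp1 and one Foxo4 probe, with 1 point per array in each of the 4 groups; filled points are well above background and short lines mark the lowest such intensity of each array. Fbp1 and Igfbp1 lie below the lines on every array, Pck1 exceeds them on 1 array (13.8), and the Foxo4 probe is well above background on 4 of 4 eIF6 shRNA polysomal arrays and 1 of 4 scramble polysomal arrays.

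Of the 3 FoxO mRNAs among the members, Foxo4 was the one called on polysomes after eIF6 knock-down. The Foxo4 call rested on a probe that was dim in scramble cells. Foxo6, a FoxO gene outside the members, was also called there (0.80, limma adjusted p = 0.000866) and was well above background on all 16 arrays. A gene was called when its limma p value, adjusted by Benjamini-Hochberg over the 19365 genes tested, was under 0.05. On polysomes 10.7% of these genes were called lower and 11.1% higher. Of the 7 members with a fitted value 0 were called lower and 1 higher, and the median change of the members was 0.09 against 0.016 over all genes. With spike-in scaling, 1056 genes were called lower and 101 higher on polysomes in place of 2072 and 2147, and 0 members in either direction. With 7 members, these counts do not set the members apart from the other genes.

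Foxo1, the main FoxO factor of hepatocytes, was well above background on every array. Its polysomal log2 signal was 8.41, 8.33, 8.29 and 8.83 in scramble cells and 8.42, 8.62, 8.62 and 8.88 in eIF6 shRNA cells. The groups overlapped. The polysomal change was 0.17 (95% interval -0.09 to 0.44, adjusted p = 0.385), and its 2 probes on chromosome 3 gave 0.16 and 0.18. In the subpolysomal fraction the scramble arrays had 7.79, 8.02, 8.06 and 7.87 and the eIF6 shRNA arrays 7.92, 7.94, 8.07 and 7.95, a change of 0.03 (95% interval -0.23 to 0.30, adjusted p = 0.880). In both fractions the interval of the Foxo1 change, relative to the average mRNA, leaves out a halving or a doubling, which is 1 unit on the log2 scale. With spike-in scaling the Foxo1 changes were -0.30 on polysomes and -0.27 below them, neither called. No interval was taken on that scale.

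Foxo3, a FoxO factor of broad expression, had polysomal signals of 5.57, 5.62, 5.85 and 5.54 in scramble cells and of 5.83, 5.53, 5.87 and 5.75 in eIF6 shRNA cells. These overlapped, with a change of 0.10 (95% interval -0.33 to 0.53, adjusted p = 0.809), and its 2 probes differed in sign (-0.16 and 0.36). The subpolysomal signals were 4.26, 5.39, 4.58 and 4.31 in scramble cells and 4.39, 4.43, 4.63 and 4.12 in eIF6 shRNA cells, where a single scramble array stood high. The subpolysomal change was -0.25 (SE 0.20, adjusted p = 0.422).

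Foxo4, the FoxO gene of the X chromosome, had polysomal signals of 3.30, 3.30, 4.04 and 3.02 in scramble cells and of 4.14, 4.24, 4.31 and 4.04 in eIF6 shRNA cells. The groups met at 4.04 in rounded values and did not overlap. The polysomal change was 0.77 (SE 0.17, 95% interval 0.40 to 1.13, fold 1.70, limma adjusted p = 0.00372, two-sided exact permutation p = 0.0286, which is the smallest that 4 against 4 arrays allow). Its 3 probes did not share this size. Probe A_55_P2113031 (positions 98451524 to 98451583) gave 1.46 (adjusted p = 0.00901), whereas A_55_P2113026 and A_55_P2150901, which overlap each other further along the gene between positions 98454966 and 98455033, gave 0.38 and 0.45 (adjusted p = 0.285 and 0.223). The first probe had scanner intensities of 8.17, 2.81, 11.8 and 9.90 on the scramble polysomal arrays and was well above background on 1 of them. On the eIF6 shRNA polysomal arrays it had 15.8, 19.3, 16.4 and 13.4 and was well above background on all 4, so that it passed the filter through the group in which it was bright. With the brightest probe alone the Foxo4 change was 0.38 (adjusted p = 0.280) and with another background correction (normexp) 0.11 (adjusted p = 0.121). Scaling to the 75th percentile gave 0.68 (adjusted p = 0.0684), scaling to spike-in probes 0.21 (adjusted p = 0.795) and leaving out replicate 2 gave 0.72 (adjusted p = 0.0572). Within the 4 slides the change ranged from 0.10 to 1.22, higher in 4 of 4.

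In the subpolysomal fraction Foxo4 had 3.05, 3.09, 3.18 and 3.33 in scramble cells and 3.62, 3.66, 3.38 and 3.34 in eIF6 shRNA cells. These did not overlap (exact permutation p = 0.0286), but the change of 0.34 (95% interval -0.03 to 0.70) was not called (limma adjusted p = 0.172). Few of these arrays measured Foxo4 at all, with a probe well above background on 1 of 4 and 2 of 4. By probe the subpolysomal change was 0.75 for A_55_P2113031, 0.31 for A_55_P2113026 and -0.06 for A_55_P2150901, none of them called. The signals of Foxo4 average these 3 probes, including the one that passed the filter through the eIF6 shRNA polysomal arrays. Over the 16 arrays, each profile centred on its own mean, the closest of 14567 candidate genes to Foxo4 were A_55_P2061421 (a probe with no gene name), Asb13 and AK149306, with root mean square differences of 0.157, 0.171 and 0.174 on the log2 scale.

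**Figure D2:**
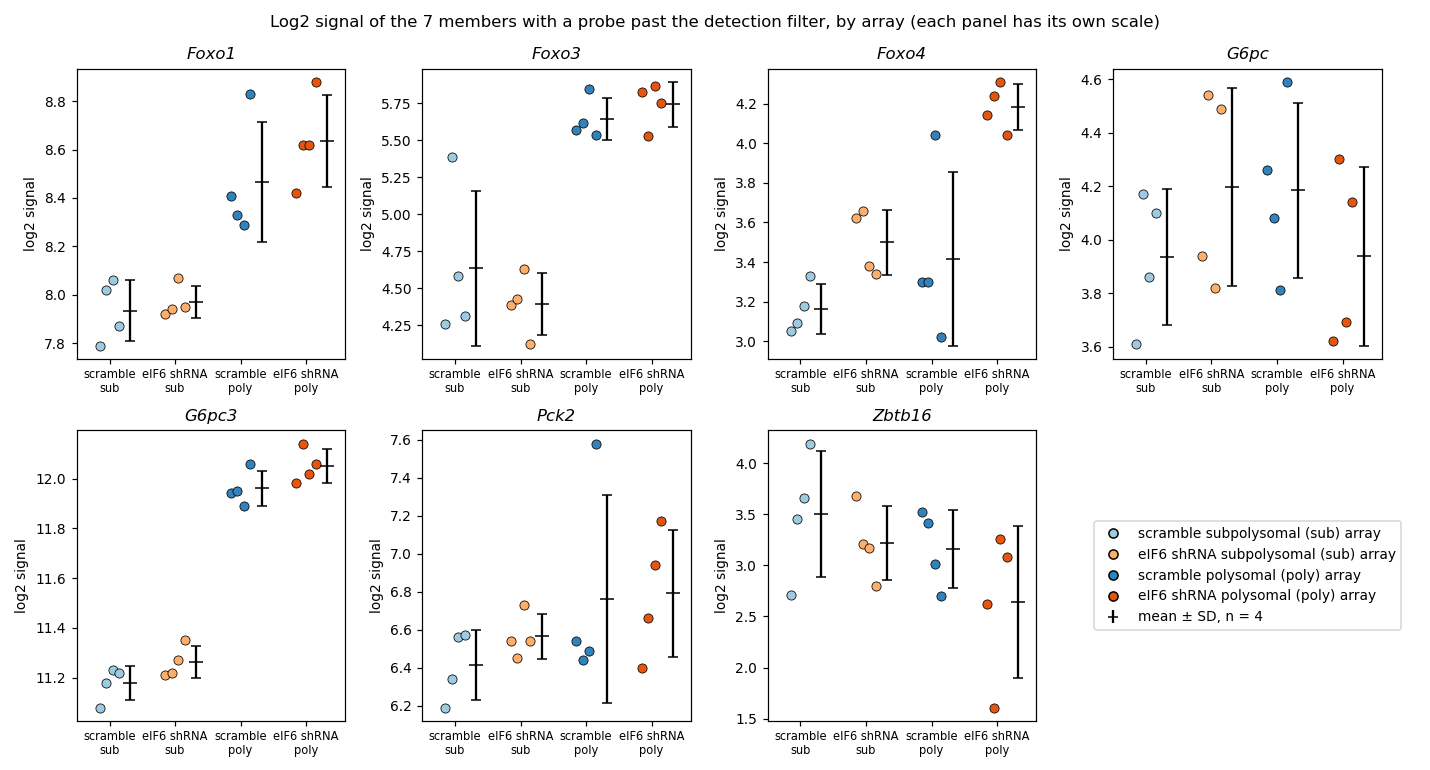
Log2 signal (y axis, quantile normalized) of the 7 members with a fitted value in each of the 16 arrays, by group (x axis), with the mean and SD of the 4 arrays beside them; each panel has its own scale. The 4 eIF6 shRNA polysomal arrays of Foxo4 (4.04 to 4.31) lie at or above the highest scramble polysomal array (4.04), while the same 2 groups overlap in the other 6 genes.

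The glucose-6-phosphatase genes did not differ between eIF6 shRNA and scramble cells beyond their spread. G6pc had a single probe (A_51_P462385, chromosome 11, positions 101238947 to 101239006) and was dim, with intensities of 17.7 to 53.5 on scramble polysomal and of 13.5 to 27.1 on eIF6 shRNA polysomal arrays. Its polysomal log2 signal was 4.26, 4.08, 3.81 and 4.59 in scramble cells and 3.62, 4.30, 3.69 and 4.14 in eIF6 shRNA cells, a difference of -0.25 (95% interval -0.71 to 0.22, adjusted p = 0.499). On the subpolysomal arrays, where it was well above background on 2 of 4 in each group, it had 3.61, 4.17, 3.86 and 4.10 in scramble cells and 3.94, 4.54, 3.82 and 4.49 in eIF6 shRNA cells. The subpolysomal difference was 0.26 (95% interval -0.20 to 0.72, adjusted p = 0.426). The 4 groups of G6pc thus overlapped throughout. Within the slides the polysomal difference was between -0.39 and -0.12, lower in 4 of 4.

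G6pc3, the catalytic subunit found in most tissues, was bright and precise. Its polysomal signal was 11.94, 11.95, 11.89 and 12.06 in scramble cells and 11.98, 12.14, 12.02 and 12.06 in eIF6 shRNA cells, a difference of 0.09 (95% interval -0.06 to 0.24, adjusted p = 0.442). The subpolysomal difference was 0.08 (95% interval -0.07 to 0.24, adjusted p = 0.431). Its 2 probes gave polysomal values of 0.06 and 0.12. For G6pc3 a change of more than 0.24 relative to the average mRNA lies outside the interval in either fraction. On this quantile normalized scale it was the most tightly bounded of the 7 genes. With spike-in scaling its polysomal difference was -0.36 (limma adjusted p = 0.69).

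Pck2, the mitochondrial phosphoenolpyruvate carboxykinase, was measured with 10 spots of 1 probe on chromosome 14. On polysomes it had 6.54, 6.44, 6.49 and 7.58 in scramble cells and 6.40, 6.66, 6.94 and 7.17 in eIF6 shRNA cells, so 1 scramble array stood well above the other 3. The difference was 0.03 (95% interval -0.45 to 0.51, adjusted p = 0.958) and turned to -0.04 without replicate 2, -0.11 without replicate 3 and -0.47 with spike-in scaling, none of them called. Subpolysomal Pck2 differed by 0.15 (SE 0.23, adjusted p = 0.685).

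Zbtb16, also known as PLZF, is a zinc finger factor that glucocorticoids induce and that has been tied to gluconeogenesis in the liver. It was dim, and well above background on 4 of 4 scramble polysomal and 2 of 4 eIF6 shRNA polysomal arrays. Its polysomal signal was 3.52, 3.41, 3.01 and 2.70 in scramble cells and 2.62, 1.61, 3.26 and 3.08 in eIF6 shRNA cells. The groups overlapped, and the difference of -0.52 had a wide interval (-1.29 to 0.25, adjusted p = 0.370). The subpolysomal difference was -0.29 (95% interval -1.05 to 0.48, adjusted p = 0.621), with well above background signals on 3 of 4 and 1 of 4 arrays. A halving of Zbtb16 lies inside both intervals, so these arrays cannot tell such a change from none.

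In the subpolysomal fraction none of the 7 members was called in limma at an adjusted p under 0.05, against 12.3% of all genes called lower and 11.8% higher (at an unadjusted limma p under 0.05 also 0 of 7). The change in translational efficiency, which is the polysomal minus the subpolysomal change, was likewise called in 0 of 7 in limma, against 1.11% of all genes lower and 0.403% higher. Its values were 0.14 for Foxo1, 0.34 for Foxo3, 0.43 for Foxo4, -0.51 for G6pc, 0.01 for G6pc3, -0.12 for Pck2 and -0.24 for Zbtb16. The limma adjusted p ranged from 0.509 to 0.991, and 0 of 7 had an unadjusted limma p under 0.05. The share of all genes at an unadjusted p under 0.05 was not counted in either comparison, so those counts do not set the members apart. The narrowest interval was that of G6pc3 (-0.21 to 0.22) and the widest that of Zbtb16 (-1.32 to 0.85). The polysomal and subpolysomal changes of the members were therefore not shown to differ from each other, Foxo4 included (95% interval of its efficiency change -0.08 to 0.94).

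**Figure D3:**
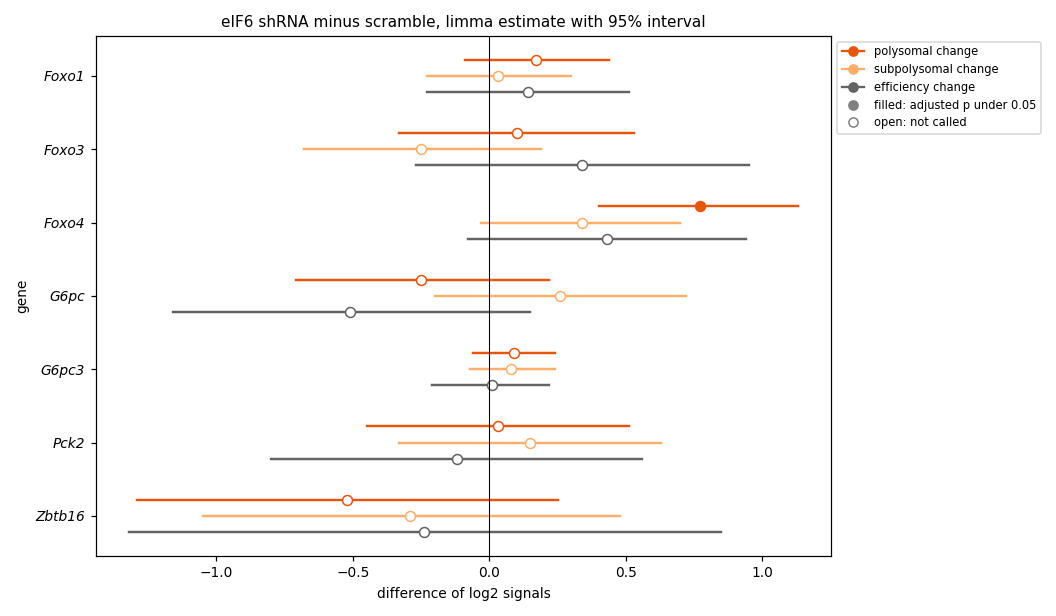
Differences of log2 signals between eIF6 shRNA and scramble cells (x axis) for the 7 members (y axis), with points for the limma estimate and lines for its 95% interval in the polysomal fraction, the subpolysomal fraction and their difference (efficiency). The polysomal change of Foxo4 (0.77) is the only filled, that is called, point, and the interval of G6pc3 is the narrowest.

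Foxo1, Foxo3 and G6pc3 were called higher on polysomes than in the subpolysomal fraction, in scramble and in eIF6 shRNA cells alike. The arrays are normalized to each other, so the difference between polysomal and subpolysomal signal is relative to the average mRNA and not an absolute share on polysomes. In scramble cells 28.4% of all genes were called lower and 31.7% higher on polysomes than in the subpolysomal fraction, and of the 7 members 0 were lower and 3 higher, a median of 0.35 against 0.035 over all genes. The count of 3 is near the share of all genes called higher and does not set the members apart. Foxo3 was higher on polysomes by 1.01 (SE 0.20, fold 2.02, adjusted p = 0.000516), G6pc3 by 0.78 (SE 0.07, fold 1.72, adjusted p = 2.48e-07) and Foxo1 by 0.53 (SE 0.12, fold 1.44, adjusted p = 0.00177). For these 3 genes the polysomal and subpolysomal arrays of scramble cells did not overlap. The share of all genes without such overlap was not counted, so this does not set the 3 genes apart either. The 4 other genes had 0.35 (Pck2), 0.25 (Foxo4), 0.25 (G6pc) and -0.34 (Zbtb16), and none of these was called (adjusted p = 0.196, 0.217, 0.337 and 0.433).

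In eIF6 shRNA cells 28.7% of all genes were lower and 32.1% higher on polysomes, and 0 and 4 of the 7 members were. Foxo3 was higher by 1.35 (SE 0.20, adjusted p = 3.83e-05), G6pc3 by 0.79 (SE 0.07, adjusted p = 2.69e-07), Foxo1 by 0.67 (SE 0.12, adjusted p = 0.000264) and Foxo4 by 0.68 (SE 0.17, adjusted p = 0.00278). The first 3 of these were also called in scramble cells, on separate arrays. The Foxo4 value uses the same eIF6 shRNA polysomal arrays as its polysomal change, and probe A_55_P2113031 alone gave 0.10 here while the other 2 probes gave 0.57 and 1.37. With scaling to the 75th percentile the Foxo4 value turned to -0.12 (adjusted p = 0.680) and its call was lost. G6pc, Pck2 and Zbtb16 had -0.26, 0.23 and -0.58 (adjusted p = 0.317, 0.402 and 0.181).

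The size of these ratios depends on the scaling, whereas the calls of Foxo1, Foxo3 and G6pc3 did not in either cell type. With spike-in scaling the median of all genes moved to 1.52 in scramble and 1.30 in eIF6 shRNA cells, so that 396 genes were called lower and 13410 higher in scramble cells, in place of 5496 and 6131. In eIF6 shRNA cells the counts were 494 and 11216 in place of 5552 and 6222. On that scale G6pc3 was higher on polysomes by 2.68, Foxo3 by 2.23 and Foxo1 by 2.16 in scramble cells, still above the median. With the 75th percentile the median was -0.20 in scramble cells with 7310 lower and 4996 higher, in eIF6 shRNA cells -0.23 with 7776 and 4932, and the 3 genes in scramble cells had 0.96, 0.51 and 0.44, the Foxo3 value with an adjusted p of 0.0498. The direction of G6pc in scramble cells was 0.25 with the quantile method, 1.33 with spike-ins and -0.39 with the 75th percentile, and no place in the gradient can be given for it.

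**Figure D4:**
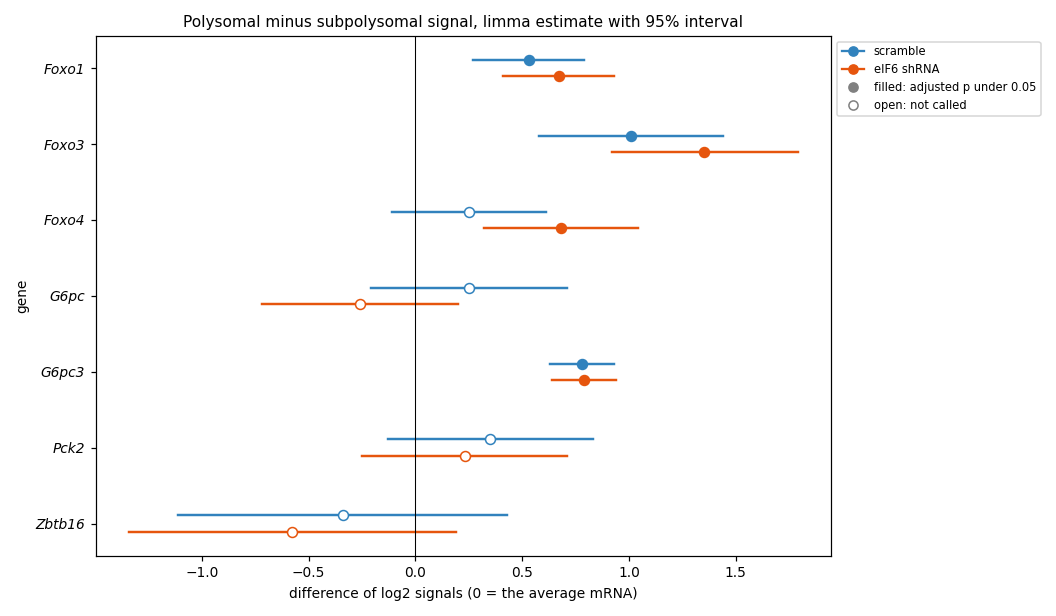
Polysomal minus subpolysomal log2 signal (x axis, where 0 is the average mRNA) for the 7 members (y axis) in scramble and eIF6 shRNA cells, with the limma estimate as a point and the 95% interval as a line. Foxo1, Foxo3 and G6pc3 are called higher on polysomes in both cell types, with intervals that overlap between them.

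The genes around FoxO were described from 5 lists, whose counts stand against 10.7% of all genes called lower and 11.1% called higher on polysomes and 12.3% and 11.8% in the subpolysomal fraction. Of 28 other FoxO targets with a fitted value, 2 fell and 9 rose on polysomes (median 0.14, all genes 0.016), and 3 fell and 9 rose in the subpolysomal fraction (median 0.19). Foxo6, itself a FoxO gene, and Trim63 are among the 9 in both fractions. With spike-in scaling 0 of the 28 were called lower and 2 higher on polysomes. Ppargc1a, the coactivator PGC-1α that works with FoxO1 and HNF4α on gluconeogenic promoters, rose on polysomes from 3.68 ± 0.29 (SD, n = 4) to 5.67 ± 0.44, a change of 1.99 (SE 0.23, adjusted p = 1.40e-05). It also rose in the subpolysomal fraction by 0.95 (adjusted p = 0.0077). In scramble cells Ppargc1a was dim, with means of 3.41 subpolysomal and 3.68 polysomal, against 3.16 and 3.42 for Foxo4. Its signal averages 2 probes, of which at least 1 was well above background on each of the 16 arrays, and no change is given by probe. Trim63, a muscle ubiquitin ligase, was well above background on none of the scramble arrays and on all 8 eIF6 shRNA arrays, and was at least 2.53-fold higher on polysomes (adjusted p = 8.02e-06) and at least 1.97-fold higher in the subpolysomal fraction (adjusted p = 0.000102). For this bound the level of the dim group was taken on each array as the lowest signal of a probe well above background, or the signal of the gene itself where that was higher. Trim63 passed the detection filter through the eIF6 shRNA arrays alone, and its adjusted p comes from the measured signals, which were below background in scramble cells, and not from the bound. Foxo6, a further FoxO gene, rose by 0.80 (adjusted p = 0.000866), and Txnip, which restrains glucose uptake, fell by 0.75 (adjusted p = 2.47e-05). In the subpolysomal fraction Foxo6 rose by 0.64 (limma adjusted p = 0.00514) and Txnip fell by 0.58 (limma adjusted p = 0.000311). The insulin signalling targets Irs2 and Insr had polysomal differences of -0.06 and 0.14 and were not called (adjusted p = 0.896 and 0.740).

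The other genes of gluconeogenesis and the steps it shares with glycolysis numbered 25, all well above background on 16 arrays, of which 1 fell and 3 rose on polysomes (median 0.12). Ldhb, the heart-type lactate dehydrogenase subunit, fell from 9.63 ± 0.18 to 8.08 ± 0.19 (SD, n = 4), a change of -1.55 (adjusted p = 1.91e-07). Its subpolysomal change was -0.35 (adjusted p = 0.0464) and its efficiency change -1.20 (adjusted p = 0.00156), the only one called in the list. Gpt, alanine aminotransferase, rose by 0.99 (adjusted p = 2.16e-05) on polysomes and by 0.80 (adjusted p = 0.000205) below them. Got1, aspartate aminotransferase, rose by 0.58 (adjusted p = 0.0258) and Slc2a2, the glucose transporter GLUT2, by 0.37 (adjusted p = 0.0165). Pcx, pyruvate carboxylase, had 0.12 (adjusted p = 0.774). In scramble cells 15 of the 25 were higher and 1 lower on polysomes than in the subpolysomal fraction (median 0.69, all genes 0.035), against 31.7% of all genes higher and 28.4% lower.

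Among 30 kinases, 14-3-3 proteins and other regulators of FoxO, 4 fell and 3 rose on polysomes (median -0.03), and 4 fell and 1 rose in the subpolysomal fraction. Mdm2, an E3 ubiquitin ligase that acts on p53 and FoxO proteins, fell in both fractions, by 1.13 (adjusted p = 2.27e-08) and 1.07 (adjusted p = 7.95e-08). Skp2, an F-box protein, fell by 0.63 (adjusted p = 0.000178) and Sirt2, a deacetylase, rose by 0.74 (adjusted p = 2.66e-05) on polysomes. In the subpolysomal fraction Skp2 fell by 0.54 (limma adjusted p = 0.000716) and Sirt2 rose by 0.86 (limma adjusted p = 8.56e-06). Sgk2, a kinase related to AKT, was well above background on the 4 scramble polysomal arrays alone and was at least 1.97-fold lower on eIF6 shRNA polysomes (adjusted p = 0.000205). Since Sgk2 was not well above background on any subpolysomal array, its called efficiency change has no usable subpolysomal term. Sgk2 passed the filter through the scramble polysomal arrays alone, and its adjusted p likewise rests on measured signals below background in eIF6 shRNA cells. The polysomal differences of Akt1 and Akt2 were -0.24 and 0.19 (adjusted p = 0.220 and 0.529), and in the subpolysomal fraction Akt1 fell by 0.42 (adjusted p = 0.026).

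Of 24 transcription factors and coactivators of gluconeogenic genes, 3 fell and 5 rose on polysomes (median 0.10), and 6 fell and 4 rose in the subpolysomal fraction (median -0.15). Besides Ppargc1a, which stands in both lists, the hepatocyte factors Onecut1 (HNF6) and Cebpa rose on polysomes by 1.20 (adjusted p = 3.47e-05) and 0.86 (adjusted p = 0.000156). In the subpolysomal fraction Onecut1 and Cebpa rose by 0.95 (limma adjusted p = 0.000353) and 1.20 (limma adjusted p = 8.01e-06), and their efficiency changes were not called. Creb3l3, a liver factor cleaved from a membrane-bound precursor, fell from 5.84 ± 0.23 to 4.45 ± 0.30 (SD, n = 4), a change of -1.39 (adjusted p = 4.85e-05). Hnf4a and the glucocorticoid receptor Nr3c1 had -0.25 and 0.17 and were not called (adjusted p = 0.126 and 0.273). Because the medium held dexamethasone, 15 glucocorticoid-induced genes were set beside the members, of which 1 fell and 6 rose on polysomes (median 0.18), against 10.7% and 11.1% of all genes, and 0 in either direction were called in limma with spike-in scaling. Tat, tyrosine aminotransferase, rose by 0.91 (adjusted p = 0.0217), Arrdc2 by 0.49 (adjusted p = 0.00124) and Tsc22d3 (GILZ) by 0.45 (adjusted p = 0.0151), while Lcn2 fell by 0.50 on polysomes (adjusted p = 0.00185) and rose by 0.39 below them (adjusted p = 0.0108). Arrdc2 also rose below polysomes, by 0.29 (limma adjusted p = 0.0354). Genes of these lists thus went both ways around members that were mostly not called.

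These directions are relative to the average mRNA. With spike-in scaling, which moved the median of all genes on polysomes to -0.47, the list medians became -0.34 (gluconeogenesis), -0.38 (FoxO targets), -0.52 (FoxO regulators), -0.37 (transcription factors) and -0.33 (glucocorticoid-induced genes). On that scale Trim63 (2.09), Ppargc1a (adjusted p = 0.0275), Ldhb (-2.07), Creb3l3 (-2.07) and Sgk2 (adjusted p = 3.17e-07) were still called on polysomes, and the other genes named from the lists as called there were not. Slc2a2 turned to -0.09, and Tsc22d3 and Arrdc2 stood at 0.01 and 0.05. With the 75th percentile all 19 of these genes were called on polysomes in the same direction.

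**Figure D5:**
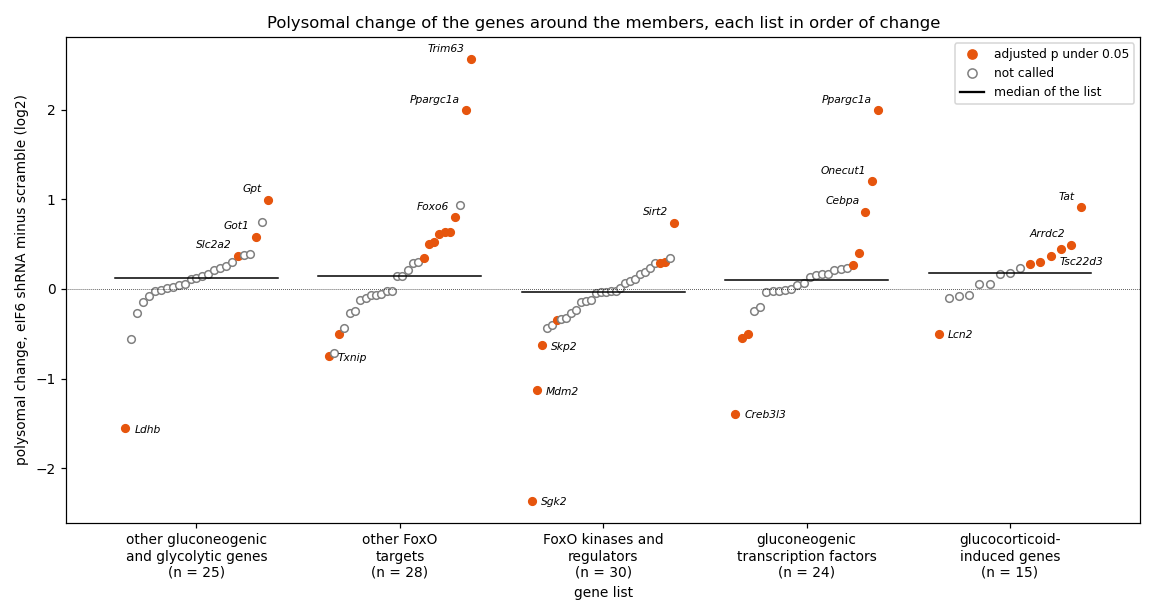
Polysomal change in log2 signal between eIF6 shRNA and scramble cells (y axis) for each gene of the 5 lists (x axis, genes in order of change, n given under each list), with called genes filled, the 4 largest called changes named and the median of the list as a line. Each list has called genes on both sides of 0, and the medians lie between -0.03 and 0.18.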

How the data were processed

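The authors deposited the scanner output of each array, with a background-corrected intensity per spot that is not normalized between arrays, and a quantile normalized log2 table of the same arrays (correlations of 0.9947 to 0.9997 with the log2 intensities). The labels name Feature Extraction 10.7.7.1 and the file headers 10.7.3.1. Intensities were read in R 4.3.3 (package data.table, version 1.17.8). Spots marked as outliers were dropped (82 probe values missing), spots of a probe were averaged, and a probe was kept if well above background on 2 or more arrays of any group, which left 25260 probes. Their log2 intensities were quantile normalized, and kept probes were averaged by gene name. limma 3.58.1 was fitted with 4 group means to 19365 genes, of which 19338 had a value on every array, and Benjamini-Hochberg adjustment was applied with a threshold of 0.05. Exact permutation tests were two-sided, over 70 arrangements. The scripts were tested on simulated data.

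The number of arrays limits the precision. Probe positions are mm9 as deposited, and exon or UTR status was not analysed here. Promoters came from RefSeq (GRCm38.p6). The 10 members and the gene lists were chosen with earlier results of these data known. Named genes are the members, Eif6, from each list at most the 4 with the largest called polysomal change, and for called members the 3 genes with the closest profile. Marker genes, Irs2, Insr, Pcx, Akt1, Akt2, Hnf4a and Nr3c1 were added by name for their roles, with their values known. Markers were hepatocyte, cholangiocyte, mesenchymal or stellate, endothelial and macrophage genes. On polysomes 0 fell and 3 rose of 13 hepatocyte, none changed of 5 cholangiocyte and 2 endothelial, and 1 fell of 5 macrophage markers. Alternatives were other scalings (7 spike-in probes, or the 75th percentile), separate normalization of the fractions, normexp (offset 50), other detection filters, the brightest probe, the deposited log2 table, slide or replicate number in the model, and leaving out each replicate. A filter on all 16 arrays and the omission of eIF6 shRNA subpolysomal array 2 were added after seeing the data. Python 3.11.15 and matplotlib 3.10.9 made the figures.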

Additional observations from a re-analysis of the deposited data

Results flagged for a closer look

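Pck2 on scramble polysomal array 4 had a log2 signal of 7.58, while the other 3 arrays of the group lay between 6.44 and 6.54. The gap to the nearest array was 0.908 of the range of the group, above the 95% critical value for 4 arrays. This was 1 of 40 gene and group combinations examined, and chance alone marks about 1 in 20.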

How the results depend on the processing

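The single polysomal call among the members (Foxo4, 1 called higher) was lost, leaving 0, with scaling to the 75th percentile, spike-in scaling, normexp, the brightest probe, probes well above background on all 16 arrays, which hold no Foxo4 probe, and without replicate 2, so that leaving out a replicate gave 0 to 1. No alternative called a member in the subpolysomal or the efficiency comparison. For the ratio of polysomal to subpolysomal signal, the members called higher were 3 in scramble and 4 in eIF6 shRNA cells whichever replicate was left out. They were 6 with spike-in scaling in scramble cells, where 13410 of all 19365 genes were called higher, so this count does not set the members apart. With the 75th percentile, members called lower were 1 in scramble cells (Zbtb16, -0.99) and 2 in eIF6 shRNA cells (G6pc, -1.05, and Zbtb16, -1.35). Of all 19365 genes, 7310 and 7776 were called lower there. With detection on all 4 arrays of a group 1 member was called lower in eIF6 shRNA cells (Zbtb16, -0.76), against 5333 of 17215 genes. The values that changed sign follow. Except for the called ratio of Foxo4 in eIF6 shRNA cells they were not called, and the cause was not tested. With spike-in scaling, which moved the median of all genes to -0.47 on polysomes and -0.23 below them, the polysomal differences became -0.30 (Foxo1), -0.44 (Foxo3), -0.36 (G6pc3) and -0.47 (Pck2), the subpolysomal ones -0.27 (Foxo1), -0.18 (G6pc3) and -0.18 (Pck2), and the efficiency ones -0.02 (Foxo1) and -0.18 (G6pc3). The ratios became 0.73 (Zbtb16, scramble) and 0.48 (G6pc) and 0.18 (Zbtb16) in eIF6 shRNA cells. Foxo3 on polysomes was 0.00 with normexp and -0.16 with the brightest probe or with probes detected on all 16 arrays. The efficiency of G6pc3 was 0.00 with normexp and with the brightest probe, and -0.01 without eIF6 shRNA subpolysomal array 2. With the 75th percentile the ratios of Foxo4 were -0.41 and -0.12 (scramble and eIF6 shRNA), that of G6pc -0.39 in scramble and that of Pck2 -0.03 in eIF6 shRNA cells, and with normexp G6pc was -0.01 in scramble cells. Leaving out a replicate gave Pck2 -0.11 to 0.17 on polysomes, Zbtb16 -0.70 to 0.08 below them, efficiency values of -0.89 to 0.28 for Zbtb16 and -0.04 to 0.05 for G6pc3, and a scramble ratio of -0.72 to 0.04 for Zbtb16.

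Over all genes, 2072 were called lower and 2147 higher on polysomes, and 1056 and 101 with spike-in scaling. Below polysomes 2390 and 2293 became 345 and 43, and for efficiency 215 and 78 became 30 and 2, or 430 and 59 with the 75th percentile, 390 and 177 with normexp, 341 and 130 with separate fractions and 141 and 55 without a detection filter. Leaving out a replicate gave 2768 to 5002, 2618 to 6157 and 74 to 299 calls in these 3 comparisons, in each case the most without replicate 4 and the fewest without replicate 1. Deviations of arrays with the same replicate number correlated at -0.157 to 0.412. Between the polysomal groups the values were 0.118, -0.039, 0.027 and 0.412 for replicates 1 to 4, and replicates 1 and 4 matched their own number best. Not every pair was above 0.1 and the labels give no shared origin, so the numbers were not taken to pair the samples. The efficiency of G6pc, taken as differences between arrays of the same number, did not overlap between the cell types (exact permutation p = 0.0286), but that value needs the pairing, and in limma the change was not called (adjusted p = 0.553). With the replicate block, 2003 and 2087 genes were called on polysomes, and the calls of the members did not change (Foxo4 0.77, adjusted p = 0.00607). Signals near background limit Foxo4, G6pc and Zbtb16, and among the list genes also Ppargc1a in scramble cells, Trim63 and Sgk2.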
